A study of Mus musculus with 12 samples.

Results

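The genes described here are the 3 receptor activity-modifying proteins (RAMPs) *Ramp1*, *Ramp2* and *Ramp3*, their partner receptor *Calcrl*, and *Crcp*, which encodes the CGRP receptor component protein. They are 5 of the 53379 genes in the count table. The group was assembled because *Ramp3* rose from near 0 counts, in the same libraries, that is, it was chosen by the counts of *Ramp3*. The values of *Ramp3* are therefore given as a description without a test, while *Ramp1*, *Calcrl* and *Crcp* were tested. RNA was sequenced from bone marrow-derived macrophages (BMDMs) of 4 male, adult C57Bl/6J mice, grown in medium conditioned by L929 cells, which supplies macrophage colony-stimulating factor. Part of the cells of each mouse stayed untreated, and the rest received 1 µM fenoterol, a β-adrenergic agonist that raises cyclic AMP, for 1 h or for 4 h. The 12 libraries, 4 per group, held 14580533 to 22580692 counts (untreated), 18288911 to 20549801 (1 h) and 18446470 to 24153284 (4 h).

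*Calcrl* is a G protein-coupled receptor that needs a RAMP to reach the cell surface, and the RAMP sets which peptide it binds. With *Ramp1* it forms the receptor of calcitonin gene-related peptide (CGRP), and with *Ramp2* or *Ramp3* it forms the receptors of adrenomedullin, a vasoactive peptide. These receptors couple to cyclic AMP, and in macrophages CGRP is known for damping inflammatory cytokine production. *Crcp* is known both as an intracellular protein that helps the CGRP receptor to signal and as a subunit of RNA polymerase III, the enzyme that transcribes transfer RNA genes.

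In the GENCODE annotation of GRCm38, all 5 are protein-coding genes. *Ramp1* (ENSMUSG00000034353) lies on the plus strand at chr1:91179822-91225196, and *Ramp2* (ENSMUSG00000001240) on the plus strand at chr11:101246028-101259546. *Ramp3* (ENSMUSG00000041046) lies on the same chromosome as *Ramp2*, on the plus strand at chr11:6658521-6677475. *Calcrl* (ENSMUSG00000059588) is on the minus strand at chr2:84330626-84425411, and *Crcp* (ENSMUSG00000025532) is on the plus strand at chr5:130029290-130060789. Counts of *Ramp2* are uncertain, since 33.4% of its exon bases are shared on the same strand with *Vps25* and 30.7% of its 50-base stretches also occur in that gene. *Vps25* had 3 to 13 counts per library. Whether reads in the shared exons were lost in counting was not tested. The exons of *Ramp1* and *Crcp* overlap no other gene, and 0.325% of the 50-base stretches of *Calcrl* occur in other genes. Of the exon bases of *Ramp3*, 7.32% are overlapped on the opposite strand by *Gm11978*, which had 0 counts in all 12 libraries.

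Of the 5 genes, *Ramp1*, *Ramp3* and *Calcrl* were matched to the RefSeq promoter sequences (GRCm38.p6). The bases before the first annotated start of *Ramp3* and of *Ramp1* are shown because these 2 genes moved in opposite directions. Both are on the plus strand, at chr11:6658283-6658520 for *Ramp3* (238 bases, 66.0% G or C) and at chr1:91179572-91179821 for *Ramp1* (250 bases, 54% G or C). Capitals mark the GC box GGGCGG on either strand, a motif that was added to the search after the *Ramp3* sequence had been seen.
Ramp3: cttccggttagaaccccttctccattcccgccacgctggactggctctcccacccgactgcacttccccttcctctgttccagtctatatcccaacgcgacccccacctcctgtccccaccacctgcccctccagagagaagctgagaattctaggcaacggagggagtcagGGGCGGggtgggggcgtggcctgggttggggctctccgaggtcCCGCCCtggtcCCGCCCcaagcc
Ramp1: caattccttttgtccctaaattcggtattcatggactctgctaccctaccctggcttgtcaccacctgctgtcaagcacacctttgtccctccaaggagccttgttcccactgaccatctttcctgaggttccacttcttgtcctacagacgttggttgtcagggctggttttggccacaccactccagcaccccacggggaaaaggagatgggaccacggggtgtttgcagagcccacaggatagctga
The GC box begins 78, 35 and 24 bases before the RefSeq start of *Ramp3* and 83 bases before that of *Calcrl*, which fell, and it does not occur in the *Ramp1* window. It is present in the 250 bases before the start in 32.7% of 32851 RefSeq promoters. The cyclic AMP response element TGACGTCA (1.55% of promoters), its half-site TGACG (17.8%), which overlaps the full element, and the TATA box TATAAA (12.4%) were searched on both strands in the 250 bases before the start of *Ramp1*, *Ramp3* and *Calcrl*. These letters were found in none of the 3 windows, which says nothing of sites elsewhere or of the factors that bind them.

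*Ramp3* went from near 0 counts to the highest level of the 3 RAMPs. In untreated BMDMs its counts were 0, 2, 0 and 0 in mice 1 to 4. At 1 h they were 32, 45, 28 and 27, and at 4 h 163, 271, 184 and 169. The 3 groups did not overlap in any library. After TMM scaling to the mean library size (normalized count), the mean level of *Ramp3* was 0.669 ± 1.34 (SD, n = 4) before treatment, 34.6 ± 10.9 after 1 h and 189 ± 65.3 after 4 h. Against a floor of 3 counts per library, the level was at least 10.9-fold higher at 1 h and at least 59.2-fold higher at 4 h. Between 1 h and 4 h, where both groups had counts in all libraries, the log2 fold change was 2.44. It was 2.18 without the 4 h library of mouse 2 and 2.68 without the 1 h library of mouse 2.

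The mice differed in how much *Ramp3* RNA they held, but little in its increase from 1 h to 4 h. Mouse 2 had the highest normalized count of its group at 1 h (50.6, against 27.4 to 32.9 in the other mice) and at 4 h (283, against 132 to 170), and it was the mouse with the 2 untreated counts. Within mice, the log2 ratio of 4 h to 1 h was 2.37, 2.48, 2.63 and 2.25 in mice 1 to 4, with an SD of 0.16.

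**Figure D1:**
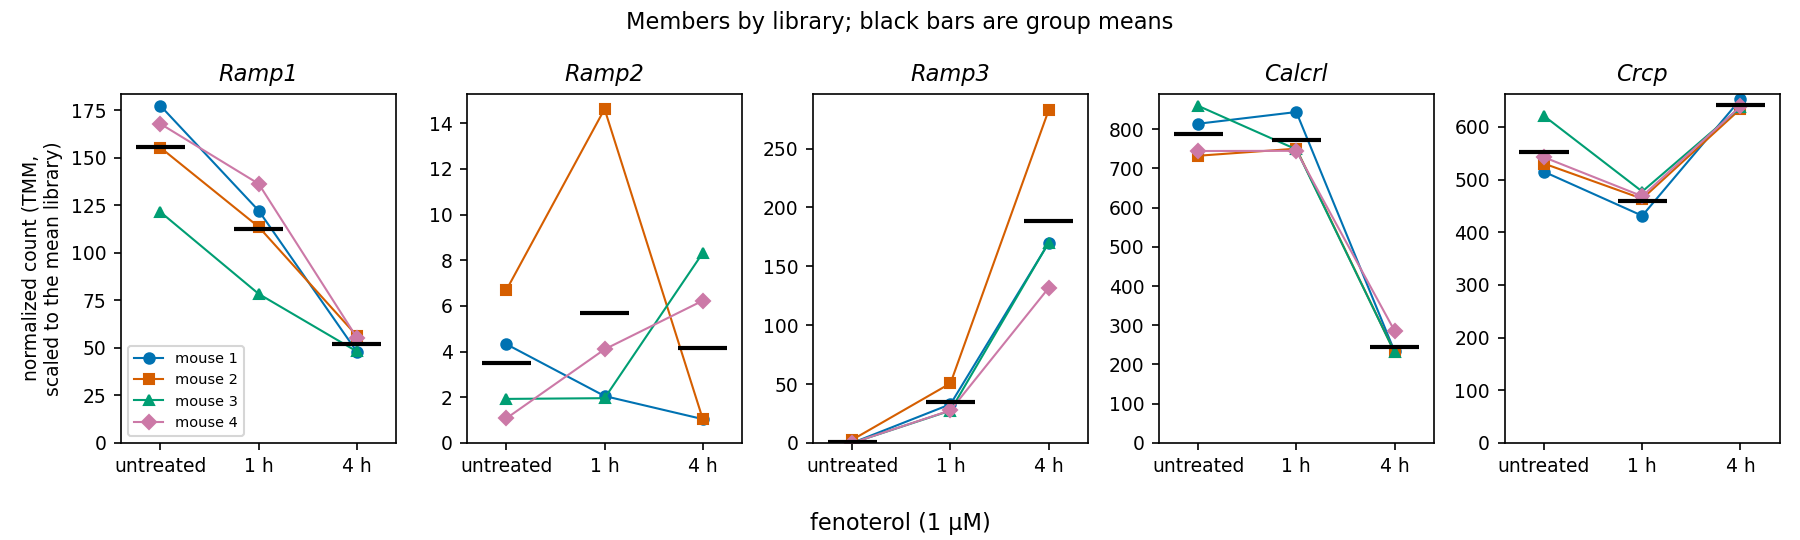
Normalized counts (TMM, scaled to the mean library size, y axis from 0) of the 5 genes in untreated BMDMs and after 1 h and 4 h of 1 µM fenoterol, with 1 line per mouse and a black bar at each group mean. Ramp3 climbs in all 4 mice while Ramp1 declines, Calcrl lies between 732 and 860 until 1 h and ends between 231 and 286, Crcp dips and recovers, and Ramp2 stays under 15.

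*Ramp1*, the subunit of the CGRP receptor, fell by 66.5% within 4 h. Its counts were 205, 116, 126 and 156 in untreated BMDMs, 119, 101, 80 and 133 at 1 h, and 46, 54, 52 and 71 at 4 h. In normalized counts the means were 155 ± 24.4, 113 ± 24.7 and 51.9 ± 4.52 (SD, n = 4). All 4 h libraries (47.9 to 56.3) lay below all others, whereas the 1 h libraries (78.4 to 136) overlapped the untreated ones (121 to 177).

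Changes were tested by the quasi-likelihood method of edgeR, and p-values were adjusted by Benjamini-Hochberg over the 12386 genes that passed the filter on low counts. At 4 h *Ramp1* was lower by a log2 fold change of -1.58 (SE 0.18, adjusted p = 5.03e-06), and from 1 h to 4 h by -1.11 (SE 0.18, adjusted p = 0.00020). At 1 h the log2 fold change was -0.47 (SE 0.17, adjusted p = 0.0667), which missed the threshold of 0.05. With the mouse as a block it was -0.47 with an adjusted p of 0.00871 and passed. *Ramp1* was lower at 1 h than in the untreated cells of the same mouse in 4 of 4 mice, with log2 ratios between -0.63 and -0.30. The call at 1 h also changed without the untreated library of mouse 3 (-0.56, adjusted p = 0.0303) or the 1 h library of mouse 4 (-0.57, adjusted p = 0.0377).

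*Ramp2* stayed near the limit of detection. Its counts were 5, 5, 2 and 1 in untreated BMDMs, 2, 13, 2 and 4 at 1 h, and 1, 1, 9 and 8 at 4 h, so the groups overlapped fully. It did not pass the filter. In a fit without the filter, edgeR gave *Ramp2* a log2 fold change of 0.69 after 1 h (SE 0.76, adjusted p = 0.666) and of 0.34 after 4 h (SE 0.77, adjusted p = 0.846). A change in *Ramp2* was not detectable with so few counts.

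*Calcrl*, the receptor itself, did not pass the test after the first hour and fell strongly between 1 h and 4 h. Its counts were 941, 547, 892 and 692 in untreated BMDMs, 822, 667, 764 and 727 at 1 h, and 224, 222, 250 and 367 at 4 h. The normalized means were 788 ± 60.0, 772 ± 48.0 and 246 ± 26.9 (SD, n = 4). The untreated and 1 h libraries overlapped, and all 4 h libraries lay below both.

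By edgeR, *Calcrl* differed by a log2 fold change of -0.030 at 1 h (SE 0.08, adjusted p = 0.849). Within mice, 3 of 4 were higher, by a log2 ratio of at most 0.052, and mouse 3 was lower, with a log2 ratio of -0.20. At 4 h it fell by 68.8% (log2 fold change -1.68, SE 0.08, adjusted p = 1.14e-09), with log2 ratios within mice from -1.89 to -1.38. From 1 h to 4 h the log2 fold change was -1.65 (SE 0.08, adjusted p = 2.67e-09). Among the 12386 genes tested, *Calcrl* ranked 125 by p at 4 h against untreated and 67 at 4 h against 1 h. In bulk RNA, fewer cells of a type and less RNA per cell cannot be told apart.

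Since *Calcrl* and the RAMPs are well known in endothelial cells, markers of other cell types were read beside them. Of 9 endothelial markers, 5 passed the filter, and of these *Cdh5* and *Lyve1* had near 0 counts in untreated BMDMs and are given as counts only. *Pecam1*, an adhesion molecule also found on myeloid cells, rose at 4 h by 2.97 (log2, adjusted p = 1.62e-06 by edgeR). *Kdr*, a receptor of vascular endothelial growth factor, rose by 1.22 (adjusted p = 0.00464 by edgeR). Both rises, and those of the *Cdh5* and *Lyve1* counts, ran in the direction of *Ramp3* and opposite to *Calcrl* and *Ramp1*. *Cdh5*, the endothelial cadherin, had 1 to 8 counts in untreated libraries, 6 to 12 at 1 h and 19 to 32 at 4 h. *Lyve1*, a hyaluronan receptor that some macrophages carry, had 0 or 1 count in untreated libraries, 5 to 12 at 1 h and 18 to 55 at 4 h. At 4 h *Vwf*, the von Willebrand factor, had a log2 fold change of -0.58 (adjusted p = 0.111 by edgeR, and 2.39e-05 with the mouse as a block). From 1 h to 4 h *Vwf* was called lower (-0.73, adjusted p = 0.0475 by edgeR), a call lost with library size scaling (adjusted p = 0.0710). At 1 h *Kdr* passed with the block (0.81, adjusted p = 0.00177) and missed without it (0.80, adjusted p = 0.0847). Of the endothelial markers that did not pass the filter, *Tek*, *Emcn* and *Prox1* had at most 3 counts and *Tie1* at most 8 in any library. The summed normalized level of the endothelial list overlapped between the groups, with 811 to 1497 before treatment, 873 to 1684 after 1 h and 821 to 1287 after 4 h. *Vwf* made up 51.7% to 94.5% of this sum in each library. Without *Vwf*, a sum added after the values had been seen, the level was 69.9 to 147 before treatment, 131 to 212 after 1 h and 396 to 456 after 4 h, and the 4 h libraries lay above all others. The part of such cells in the changes of *Calcrl* and the RAMPs was not tested.

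The 8 macrophage markers were all tested, and their summed normalized level overlapped between the groups (749009 to 785413 before treatment, 724682 to 852248 after 1 h, 701522 to 788907 after 4 h). At 4 h 3 of them were higher and 4 lower, and 3 higher and 5 lower with the mouse as a block, which added *Lyz2* (-0.19, adjusted p = 0.00256). Of all genes tested, 19.7% were called higher and 20.4% lower at 4 h, and 23.6% and 23.8% with the block. *Itgam* (0.42) and *Fcgr1* (0.72) were higher and *Adgre1* (-0.21), *Cd68* (-0.22) and *Csf1r* (-0.26) lower. The largest changes were those of *Mertk*, a receptor for apoptotic cells, with a log2 fold change of -1.51 (edgeR adjusted p = 5.13e-11), and *Cd14*, a co-receptor for lipopolysaccharide, with 2.52 (edgeR adjusted p = 3.84e-11). None of the 3 fibroblast, 3 neutrophil or 1 dendritic cell marker tested passed in any contrast, except that with the mouse as a block the collagen gene *Col1a1* passed at 4 h against 1 h (-0.42, adjusted p = 0.0454). The 5 lymphocyte markers had at most 4 counts in any library and the 4 mast cell markers at most 3.

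*Crcp* was lower at 1 h and higher at 4 h than in untreated BMDMs. Its counts were 595, 396, 644 and 504 in untreated BMDMs, 420, 412, 487 and 457 at 1 h, and 626, 608, 689 and 820 at 4 h. The normalized means were 552 ± 47.2 (SD, n = 4) before treatment, 460 ± 20.0 at 1 h and 641 at 4 h, where the 4 libraries lay between 634 and 652. No 2 groups overlapped. By edgeR it fell by 16.7% at 1 h (log2 fold change -0.26, SE 0.07, adjusted p = 0.0101) and stood 16.0% above the untreated level at 4 h (0.21, SE 0.06, adjusted p = 0.0161). From 1 h to 4 h it rose by 0.48 (SE 0.07, adjusted p = 4.64e-05). Each direction was shared by 4 of 4 mice. The rise at 4 h over untreated BMDMs was lost without the untreated library of mouse 1 (0.18, adjusted p = 0.0530) or of mouse 4 (0.20, adjusted p = 0.0526).

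Over all genes tested, 10.0% were called higher and 10.1% lower at 1 h, 19.7% higher and 20.4% lower at 4 h, and 18.7% higher and 19.8% lower at 4 h against 1 h. With the mouse as a block these shares were 13.3% and 13.7% at 1 h, 23.6% and 23.8% at 4 h, and 23.0% and 23.6% at 4 h against 1 h. Of the 3 genes with a test, 0 were called higher and 1 lower at 1 h, 1 higher and 2 lower at 4 h, and 1 higher and 2 lower at 4 h against 1 h, all without the block. With the block in edgeR *Ramp1* was also called lower at 1 h (-0.47, adjusted p = 0.00871), and the other calls stayed the same.

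Per length, the order of the genes changed over the 4 h. Normalized counts were divided by the length of all exons of a gene to compare levels between genes (normalized counts per kb). In untreated BMDMs *Crcp* was highest at 348 ± 29.8 per kb, followed by *Calcrl* at 161 ± 12.3 and *Ramp1* at 51.5 ± 8.08 (SD, n = 4), with no overlap between neighbours. *Ramp2* (1.06 ± 0.767) and *Ramp3* (0.485 ± 0.970) came last and overlapped.

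At 1 h *Ramp1* (37.3 ± 8.16 per kb) and *Ramp3* (25.1 ± 7.93) had become neighbours whose libraries overlapped. *Crcp* (290 ± 12.6) and *Calcrl* (158 ± 9.84) stood above them, and *Ramp2* (1.72 ± 1.83) below. At 4 h *Ramp3* (137 ± 47.3) stood second after *Crcp* (404 ± 5.05), above *Calcrl* (50.3 ± 5.52), *Ramp1* (17.2, from 15.9 to 18.6) and *Ramp2* (1.26 ± 1.12), again with no overlap between neighbours. The order was the same when the longest transcript gave the length.

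The make-up of the RAMPs turned over with these changes, as a description that contains *Ramp3* and so has no test. *Ramp1* made up 97.2% ± 2.96 of the RAMP level per kb before treatment, 58.5% ± 8.67 after 1 h and 11.7% ± 3.10 after 4 h (SD, n = 4). *Ramp3* was 0.876% ± 1.75, 39.1% ± 7.19 and 87.4% ± 3.74. *Ramp2* was 1.97% ± 1.31, 2.43% ± 2.16 and 0.945% ± 0.882. Its level is sensitive to the length used, since with the longest transcript it was 2.37, 3.85 and 2.81 per kb in the 3 groups in place of 1.06, 1.72 and 1.26. The groups did not overlap for either *Ramp1* or *Ramp3*.

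Set against the receptor, the 3 RAMPs together were fewer than *Calcrl* until 1 h and more than *Calcrl* at 4 h. Their summed level per kb was 53.0 ± 8.41 before treatment, 64.1 ± 13.3 after 1 h and 155 ± 47.3 after 4 h. Divided by the *Calcrl* level of the same library, this was 0.332 ± 0.067, 0.406 ± 0.089 and 3.15 ± 1.14. At 4 h the ratio was 2.91, 4.72, 2.99 and 1.97 in mice 1 to 4, so it was above 1 in each mouse. These are RNA ratios and not amounts of protein at the surface.

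**Figure D2:**
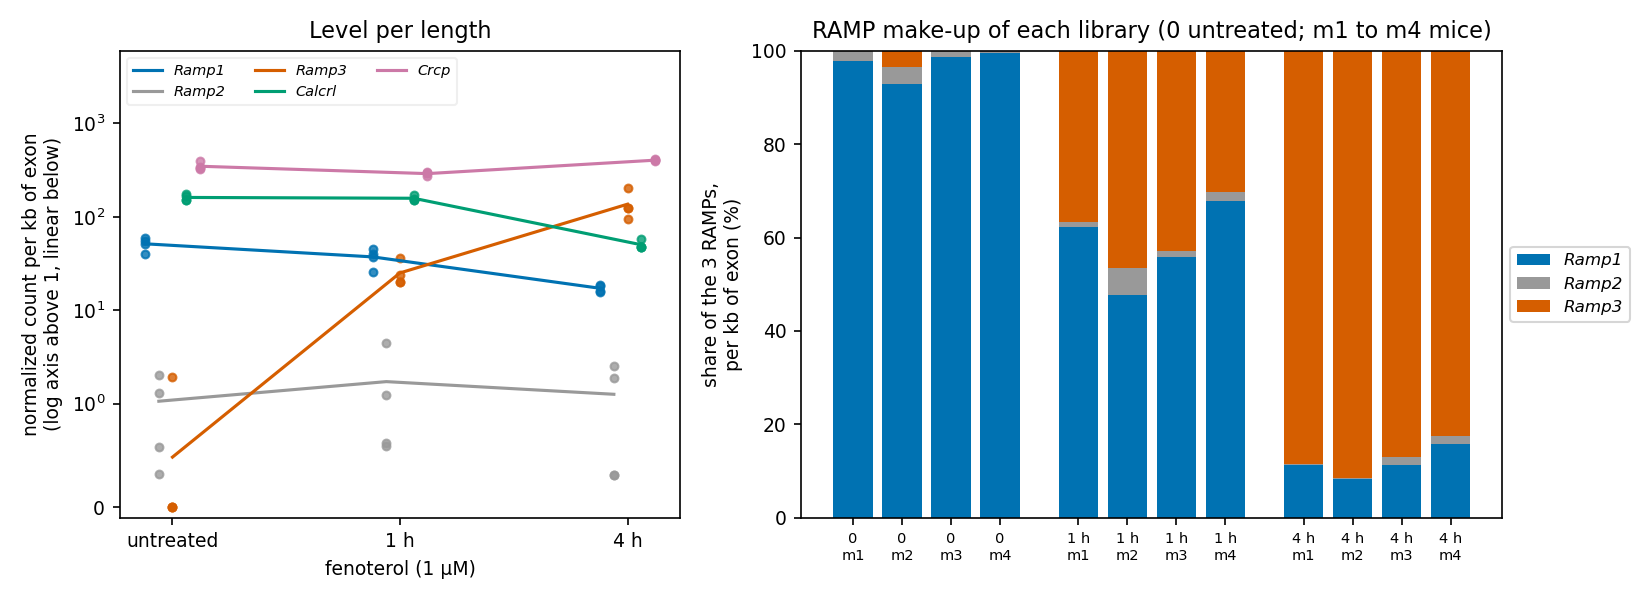
Left, normalized counts per kb of exon (log axis above 1, linear below) of the 5 genes in untreated BMDMs and after 1 h and 4 h of fenoterol, with 1 point per library and lines through the group means. Right, the share of Ramp1, Ramp2 and Ramp3 in the summed RAMP level of each library in percent (0 is untreated, m1 to m4 are the mice), in which Ramp3 goes from at most 3.50% to at least 82.5%.

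Transcripts of the peptides that these receptors bind were scarce, and the peptides themselves were not measured. None of the 5 ligand genes passed the filter, and *Adm2* and *Iapp* had 0 counts in all libraries. *Calca*, which encodes both calcitonin and CGRP, had 0, 0, 0 and 1 counts in untreated BMDMs, 9, 7, 5 and 1 at 1 h, and 8, 15, 18 and 4 at 4 h. *Adm*, which encodes adrenomedullin, had 1 to 11 counts over all libraries, and its adjusted p in an edgeR fit without the filter was 0.574 (1 h) and 0.986 (4 h). *Calcb*, which encodes a second form of CGRP, had 3 counts at most.

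Of 3 further receptors for these peptides or reported as such, *Calcr*, the calcitonin receptor, and *Gpr182* had 0 counts in all 12 libraries. *Ackr3*, a scavenging receptor for chemokines and adrenomedullin, had 0 counts in all 4 untreated libraries, 6, 2, 3 and 4 at 1 h, and 7, 13, 12 and 4 at 4 h. *Calca*, *Ackr3* and *Gper1* are named here although they did not pass the filter, and they were chosen after their values had been seen, so they are given as counts without a test.

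Among 15 other receptors reported to pair with RAMPs, 6 had 0 counts throughout and only *Vipr1*, a receptor of vasoactive intestinal peptide, passed the filter. *Vipr1* went from a normalized count of 50.8 ± 14.7 before treatment to 34.4 ± 9.22 after 1 h and 19.0 ± 7.71 after 4 h (SD, n = 4). Its log2 fold change was -0.56 at 1 h (adjusted p = 0.218) and -1.44 at 4 h (SE 0.31, adjusted p = 0.00177, edgeR). *Gper1*, a membrane receptor for estrogens, had 1, 0, 2 and 1 counts in untreated BMDMs and 10, 5, 8 and 3 at 4 h.

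Genes for making and breaking down the peptides were largely expressed, with 7 of 10 tested. At 1 h 0 of them were higher and 0 lower, where 10.0% of all genes were called higher and 10.1% lower. At 4 h 3 were higher and 1 lower, where 19.7% of all genes were called higher and 20.4% lower. Their median log2 fold change at 4 h was 0.12, against 0.0042 over all genes. *Ece1*, a protease that cleaves peptide hormones, rose by 0.67 (adjusted p = 1.50e-06), *Pam*, the enzyme that adds the terminal amide of CGRP and adrenomedullin, by 0.26 (adjusted p = 0.00136), and *Ide*, which degrades insulin and amylin, by 0.30 (adjusted p = 0.0168), all at 4 h by edgeR. *Furin*, a processing protease, fell at 4 h by 0.31 (adjusted p = 0.0252). *Pcsk1*, a prohormone convertase, fell by 1.54 from 1 h to 4 h (adjusted p = 0.0385). With the mouse as a block *Pcsk1* was also lower at 4 h than in untreated BMDMs (adjusted p = 0.0399) and *Ece1* was also higher at 1 h (adjusted p = 0.0174). Between 1 h and 4 h the list had 1 gene higher and 2 lower, and 3 higher and 2 lower with the block, which added *Pam* and *Ide*. Over all genes tested, 18.7% were called higher and 19.8% lower in this contrast, and 23.0% and 23.6% with the block.

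At 4 h genes that traffic and desensitize such receptors were called in both directions. Of 9 genes, all tested, 1 was higher and 0 lower at 1 h, and 1 was higher and 2 lower at 4 h, with medians of -0.037 and -0.061. Over all genes tested, 10.0% were called higher and 10.1% lower at 1 h, and 19.7% higher and 20.4% lower at 4 h, so these counts do not set the list apart. At 4 h against 1 h, 1 was higher and 3 lower, beside 18.7% and 19.8% of all genes. With the mouse as a block, 1 was higher and 1 lower at 1 h, beside 13.3% and 13.7% of all genes. At 4 h the block gave 2 higher and 3 lower, beside 23.6% and 23.8%. *Slc9a3r1*, a scaffold protein known to bind *Ramp3*, rose by 0.45 at 1 h (SE 0.06, adjusted p = 9.46e-05) and had a log2 fold change of 0.16 at 4 h (adjusted p = 0.0580, and 0.0289 with the mouse as a block). *Grk5*, a kinase that phosphorylates active receptors, rose by 0.90 at 4 h (SE 0.09, adjusted p = 2.15e-06), while its relative *Grk3* fell by 0.76 (SE 0.15, adjusted p = 0.00101). *Arrb1*, the arrestin that binds phosphorylated receptors, fell by 0.20 at 4 h (adjusted p = 0.00580). *Arrb2*, a second arrestin, missed the threshold at 1 h (-0.16, adjusted p = 0.0699) and at 4 h (-0.13, adjusted p = 0.0902), and passed at both with the mouse as a block (adjusted p = 0.0109 and 0.0195).

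Of 12 other listed subunits of RNA polymerase III, a list without those shared with RNA polymerase II, none was called higher than in untreated BMDMs at 4 h, and their difference from *Crcp* was not tested. All 12 were tested, and 0 were higher and 2 lower at 1 h, 0 higher and 3 lower at 4 h, and 2 higher and 3 lower at 4 h against 1 h. Of all genes tested, 10.0% were called higher and 10.1% lower at 1 h, 19.7% and 20.4% at 4 h, and 18.7% and 19.8% at 4 h against 1 h. *Polr3c* and *Polr3e* fell at 1 h, by 0.19 (adjusted p = 0.0340) and 0.24 (adjusted p = 0.0127), a direction that *Crcp* shared. *Polr3e* and *Polr3f* rose from 1 h to 4 h, by 0.32 (adjusted p = 0.00102) and 0.34 (adjusted p = 0.0113), as *Crcp* did. *Polr3b*, *Polr3gl* and *Polr1d* fell at 4 h, by 0.42 (adjusted p = 0.00019), 0.57 (adjusted p = 0.00022) and 0.49 (adjusted p = 7.81e-05). All of these subunits are parts of the same enzyme, and *Polr1d* is also part of RNA polymerase I. With the mouse as a block, 0 were higher and 4 lower at 4 h, and 3 higher and 4 lower at 4 h against 1 h, where the block called 23.6% of all genes higher and 23.8% lower at 4 h, and 23.0% and 23.6% at 4 h against 1 h.

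**Figure D3:**
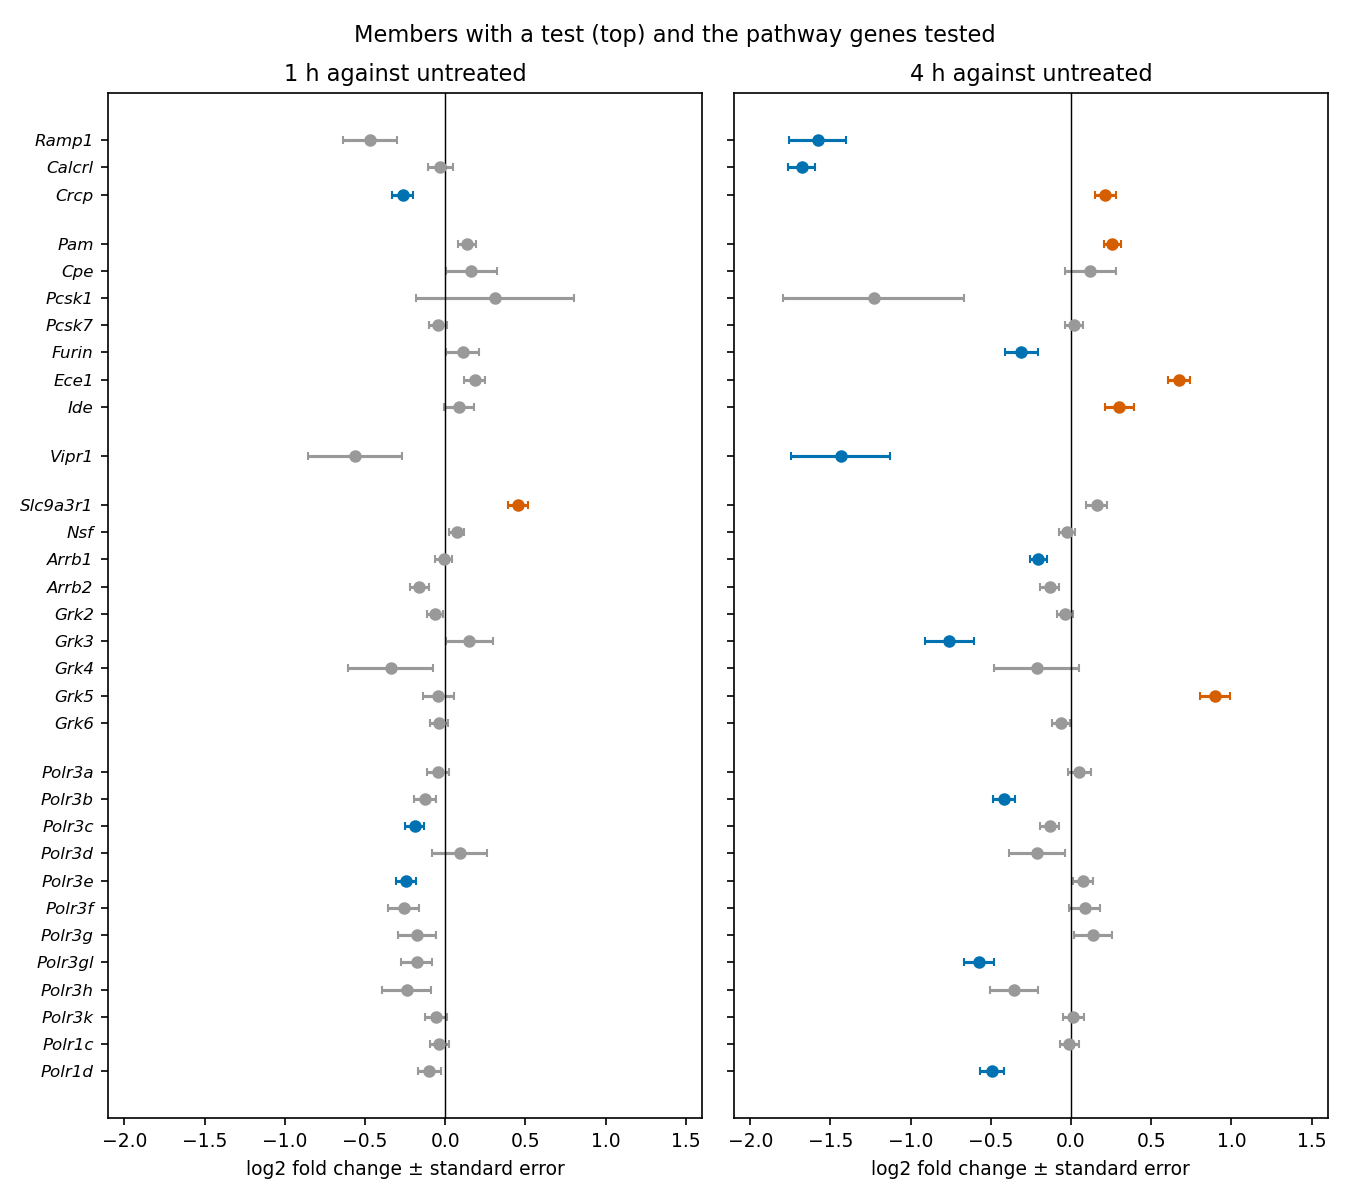
Log2 fold change ± standard error at 1 h (left) and 4 h (right) against untreated BMDMs, for Ramp1, Calcrl and Crcp (top) and then for the genes tested of the lists on peptide processing, RAMP-pairing receptors, receptor trafficking and RNA polymerase III. Orange marks genes called higher and blue genes called lower at an adjusted p under 0.05, grey marks genes not called, and Ramp1 (-1.58), Calcrl (-1.68) and Vipr1 (-1.44) lie furthest to the left of the called genes at 4 h.

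The genes whose pattern over the 12 libraries was most like that of *Ramp3* were sought by Pearson's r of log2(normalized count + 1), among the 10288 genes whose mean normalized count reached 50. The libraries share mice and groups, so r describes likeness only. The 6 closest were *Smox*, which encodes spermine oxidase (r = 0.986), *Csf2rb*, the shared receptor subunit for granulocyte-macrophage colony-stimulating factor (0.986), *Slc16a3*, a lactate transporter (0.984), *Tlr5*, the flagellin receptor (0.984), *Isy1*, a splicing factor (0.983), and *Sra1*, which gives rise to a steroid receptor RNA activator (0.983). In contrast to *Ramp3*, all 6 were already present in untreated BMDMs, from a normalized count of 69.6 ± 20.5 for *Tlr5* to 8550 ± 677 for *Csf2rb* (SD, n = 4). At 4 h *Tlr5* reached 1478 ± 357 and *Smox* 3686 ± 419.

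**Figure D4:**
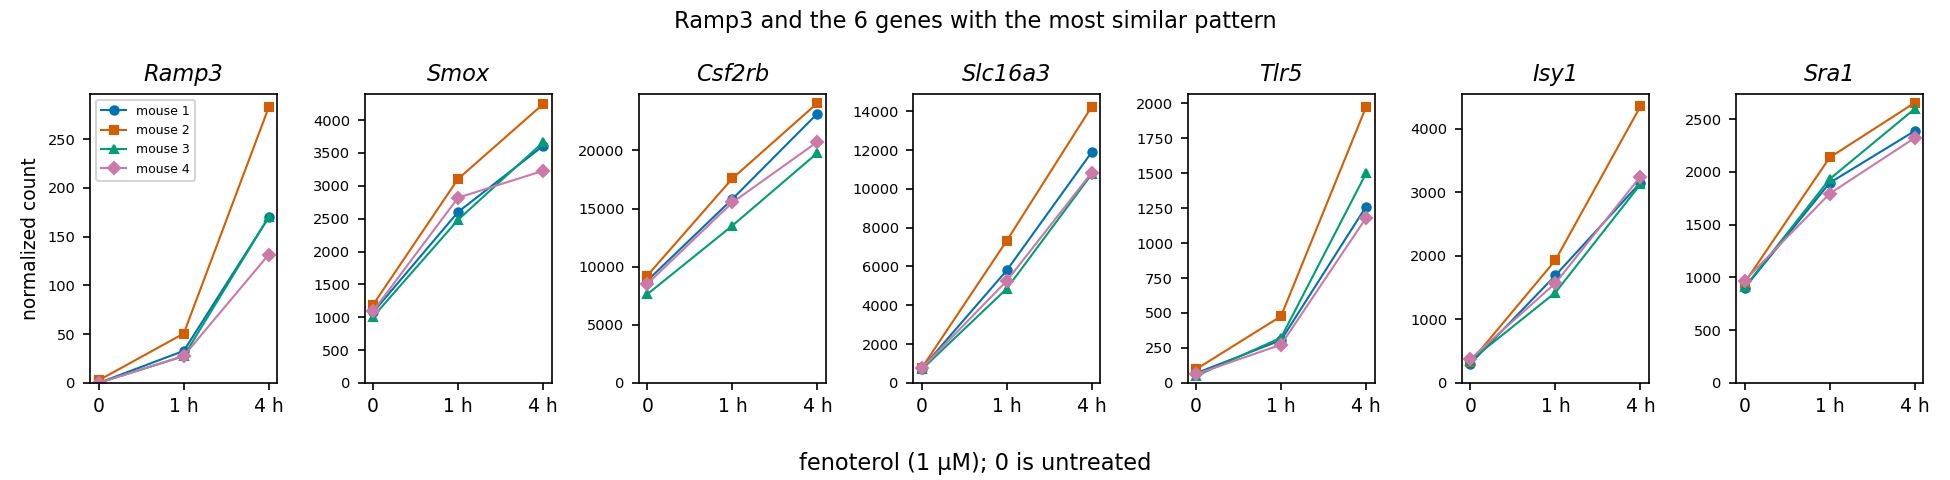
Normalized counts (y axes from 0, each gene on its own scale) of Ramp3 and the 6 genes of most similar pattern, in untreated BMDMs (0) and after 1 h and 4 h of fenoterol, with 1 line per mouse. All 7 genes climb at both times in each mouse, and mouse 2 is the highest library at 4 h for each of them.

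The 3 genes closest to *Ramp1* were *Eif4b*, a translation initiation factor (r = 0.980), *Washc2*, a component of an endosomal sorting complex (0.980), and *Tec*, a tyrosine kinase (0.972). Their decline was shallower than that of *Ramp1*, as *Eif4b* went from 11548 ± 459 to 8733 ± 284 at 4 h. Closest to *Calcrl* were *Fcrl1*, an Fc receptor-like protein (0.994), *Lipa*, the lysosomal acid lipase (0.994), and *Mtdh* (0.993). *Fcrl1* had normalized counts of 328 ± 35.8, 282 ± 26.6 and 45.3 ± 10.7 in the 3 groups, and *Lipa* 47586 ± 2562, 48888 ± 3316 and 23383 ± 1009. Closest to *Crcp* were *Med19*, a Mediator subunit (0.941), *Senp1*, a SUMO protease (0.941), and *Osgin1* (0.938), whose values also dipped at 1 h and stood highest at 4 h.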

How the data were processed

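RNA-seq was analysed in 12 libraries from BMDMs of 4 mice in 3 groups. The deposited counts are raw and were made by the authors, who mapped 50-base reads with TopHat2 2.0.11 to GRCm38 and counted them per gene with HTSeq 0.8.0. The strand setting and annotation release are not given in the sources used here. The study's limma test on scaled counts was not used, since raw counts suit edgeR. Of 53379 genes, 53274 were matched to GENCODE M21 for symbols and exon lengths.

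Genes were filtered (filterByExpr), scaled (TMM) and tested with edgeR 4.0.16 in R 4.3.3 in 1 fit over 12 libraries with no covariate. Adjusted p-values (Benjamini-Hochberg over 12386 genes) under 0.05 passed. Of the 5 members, 4 passed the filter. Alternatives were DESeq2 1.42.0, limma 3.58.1, other scalings and filters, pairs of groups, the mouse as a block, and leaving out each library. The fit was tested on simulated data.

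Members and lists were chosen with earlier results of these data known. Named genes are the members, list genes passing in any contrast (at most 6 a list), and the 6 genes (*Ramp3*) or 3 genes (other tested members) of highest r. Other list genes were named after their values were seen, to show where counts were near 0 or a call depended on the block, or to complete the macrophage markers called. Libraries of 1 number share a mouse. Their deviations from group means correlated at r = 0.291 to 0.561 (12 pairs), and those of different mice at -0.300 to 0.085. Replicates of a group are different mice and differed beyond sampling noise, with a chi-square per degree of freedom of 9.13 to 18.7.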

Additional observations from a re-analysis of the deposited data

Results flagged for a closer look

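Within groups of 4 libraries, 4 of 15 combinations of gene and group had 1 library far from the other 3 by Dixon's criterion, which chance alone meets in about 1 in 20 groups. The case of *Ramp3* was fixed by its 3 libraries at 0 and its choice as a near-0 gene, so it says nothing of that library. *Calcrl* in mouse 4 at 4 h had a normalized count of 286, against 231 to 233 in the other mice. *Calcrl* in mouse 1 at 1 h had 844, against 745 to 750. *Ramp2* in mouse 2 at 1 h had 14.6, against 1.96 to 4.10. *Ramp3* in mouse 2 was 2.68 in untreated BMDMs, which is 2 counts, and 0 in the other mice.

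The effects at 1 h and at 4 h differed for each of the 3 genes with a test, by the contrast of 4 h against 1 h in edgeR. For *Ramp1* the log2 difference was -1.11 (adjusted p = 0.00020), lower at 4 h in 4 of 4 mice. For *Calcrl* it was -1.65 (adjusted p = 2.67e-09), lower in 4 of 4 mice. For *Crcp* it was 0.48 (adjusted p = 4.64e-05), higher in 4 of 4 mice.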

How the results depend on the processing

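Under 20 alternatives each, the changes of *Ramp1* and *Calcrl* at 4 h (against untreated and against 1 h) and of *Crcp* at 1 h and at 4 h against 1 h kept their direction and their side of the threshold. The *Ramp1* change at 1 h kept its direction. It missed the threshold in the main fit but passed with library size only (-0.54, adjusted p = 0.0314) and with the replicate block (-0.47, adjusted p = 0.00871). Leaving out 1 library at a time moved it from -0.57 to -0.32. It passed without the untreated library of mouse 3 (adjusted p = 0.0303) or the 1 h library of mouse 4 (adjusted p = 0.0377). The change of *Calcrl* at 1 h, which was not called, ran from -0.076 to 0.019 when 1 library was left out, and it turned sign without the untreated library of mouse 3. That of *Crcp* at 4 h against untreated ran from 0.18 to 0.27 in the same way and was lost without the untreated library of mouse 1 or 4. That of *Ramp3* from 1 h to 4 h ran from 2.18 to 2.68, again leaving out 1 library. The cause was not tested. The replicate block changed no other call of *Ramp1*, *Calcrl* or *Crcp*. With library size scaling the median of all genes at 4 h against 1 h was 0.10, against 0.0074 with TMM, and the calls of 12 combinations of list gene and contrast changed with it. Numbers of genes called stayed within 1.5 times of 2493 at 1 h, 4958 at 4 h and 4773 between them. With the longest transcript as length, levels per kb of *Ramp1*, *Ramp3* and *Crcp* were higher by less than 1.5 times, and those of *Ramp2* by more (2.37, 3.85 and 2.81 in the 3 groups). Low counts per library limit what can be read from *Ramp2*, *Calca*, *Ackr3* and *Gper1*.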
